A study of Homo sapiens with 8 samples.

Results

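In all, 40 named genes of the interferon response were followed across the arrays: genes that interferon induces, the transcription factors that switch them on, and the sensors of foreign or misplaced DNA and RNA that start interferon production. They were picked out of the table by gene symbol, and each was represented by its probe set with the highest mean. Of the 40 genes, 39 had a named probe set among the 17491 named genes of the table, and STAT2 was not analysed here. By the sample labels, the arrays came from metastatic lymph nodes of BALB/c nude mice, an athymic strain, that carried SkMel147, a human melanoma line from skin, as tumours under the skin. The sample labels and protocols name the tissue as nodal metastases, whereas the text on the series' design speaks of excised melanomas; the sample labels are followed here, and which tissue was arrayed bears on how much host RNA each value holds. The 2 groups were 4 samples from mice that drank vehicle and 4 from mice that drank doxycycline, which served to induce Omomyc, a dominant-negative MYC protein, in the tumour cells. Treatment started at a tumour volume near 750 mm3, and nodes were taken 2 days after treatment. Both groups carried the same tumour line, no label states the age or sex of the mice, and no array stands for tumours without the inducible construct given doxycycline. Whole nodes were homogenized, so human tumour RNA and mouse host RNA were hybridized together to human probes, and nude mice lack T cells that mature in a thymus but keep B cells, NK cells and myeloid cells.

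Interferons are secreted proteins that bind receptors on the same or a neighbouring cell and act through JAK kinases. Type I and type III interferons lead to a complex with STAT2 and IRF9 that binds the interferon-stimulated response element, or ISRE, in front of its target genes. Upstream, cGAS makes a cyclic dinucleotide when it meets DNA in the cytosol and STING passes the signal on, while RIG-I and MDA5 (the product of IFIH1) recognize viral-type RNA. MYC has been described as a repressor of interferon genes in several tumours, which is the question that the comparison of doxycycline with vehicle puts to these genes.

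The start regions of many of these genes share a motif. Since most were listed as genes that interferon induces, a high share of ISRE-type matches was built into that choice and is a description only. RefSeq windows on GRCh38.p14, each of 300 bases from 250 before a transcription start to 50 after it, were found for 28 of the 39 measured genes. GAAA followed by any 2 bases and a second GAAA, a pair of half-sites as found in an ISRE, was searched on both strands, overlapping matches included. At least 1 match was present for 20 of these 28 genes (71.4%), against 583 of the 14129 measured genes with a window (4.13%) and 3.57% of all 35116 windows. A palindrome of the kind called a gamma-activated site, TTC and GAA with any 3 bases between, which can overlap the first motif, was present for 9 of the 28 genes (32.1%), against 9.02% of the measured genes with a window and 7.66% of all windows. A match describes the letters and not a bound site. The 4 windows below are given 5′ to 3′ on the strand of the gene, with the matches of the half-site pair in capitals, written TTTC at both ends where the match lies on the opposite strand. ISG15 and IFIT1 are shown as textbook targets whose values differed little between the groups here, and IFITM3 and IFI44 as genes with very uneven values among arrays.
ISG15 (chr1:1013247-1013546, plus strand): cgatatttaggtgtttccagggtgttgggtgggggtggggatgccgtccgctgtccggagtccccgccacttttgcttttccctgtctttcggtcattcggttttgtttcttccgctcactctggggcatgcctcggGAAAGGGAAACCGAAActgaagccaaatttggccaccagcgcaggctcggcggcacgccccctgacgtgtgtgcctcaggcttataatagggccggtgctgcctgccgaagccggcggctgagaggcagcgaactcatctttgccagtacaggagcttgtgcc
IFIT1 (chr10:89392373-89392672, plus strand): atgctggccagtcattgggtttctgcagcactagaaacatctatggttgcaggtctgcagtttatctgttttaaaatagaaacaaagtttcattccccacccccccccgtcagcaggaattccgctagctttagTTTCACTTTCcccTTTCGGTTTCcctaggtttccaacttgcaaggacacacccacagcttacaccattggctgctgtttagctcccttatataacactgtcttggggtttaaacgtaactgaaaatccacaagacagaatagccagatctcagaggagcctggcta
IFITM3 (chr11:320811-321110, minus strand): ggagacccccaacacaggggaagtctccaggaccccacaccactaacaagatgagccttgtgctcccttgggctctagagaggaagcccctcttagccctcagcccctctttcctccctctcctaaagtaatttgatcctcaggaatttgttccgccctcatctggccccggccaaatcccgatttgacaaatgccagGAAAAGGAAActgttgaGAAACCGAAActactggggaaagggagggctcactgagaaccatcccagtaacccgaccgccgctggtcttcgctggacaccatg
IFI44 (chr1:78649539-78649838, plus strand, the first of 2 listed starts): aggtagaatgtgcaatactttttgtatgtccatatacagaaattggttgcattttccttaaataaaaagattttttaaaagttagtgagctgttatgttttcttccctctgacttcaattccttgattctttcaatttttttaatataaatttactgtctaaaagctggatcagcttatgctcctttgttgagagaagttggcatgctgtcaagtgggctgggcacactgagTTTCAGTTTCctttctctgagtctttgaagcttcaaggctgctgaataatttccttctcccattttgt
In the ISG15 window the 2 matches overlap, and they begin at -113 and -107 relative to the start. The IFIT1 matches begin at -116 and -103, those of IFITM3 at -52 and -35, and the single match of IFI44 begins at -18 relative to this start. Both IFI16 windows hold 0 matches. The 20 genes with a match had a median difference between the groups of -0.00305 on the log2 scale, with 10 above 0 and 10 below, and the 8 genes without one had a median of -0.02, with 4 above 0 and 4 below.

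One array, vehicle replicate 1, stood apart before any comparison. Computed over genes, which do not count as replicates, its correlations with the other 7 arrays lay between 0.930 and 0.951, and the other 7 correlated with each other at 0.972 to 0.983. The array medians lay between 5.07 and 5.12. All values below are RMA log2 values as deposited, where a step of 1 is a 2-fold difference. A level of 1 gene is not set against that of another, since probes differ in their response, and in whole tissue fewer cells of a type and less RNA per cell cannot be told apart. The titles call the 4 arrays of a group biological replicas and do not name the animals, so the p-values measure the spread among these arrays.

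Interferon genes did not differ detectably between doxycycline and vehicle. Of the 39 genes, 19 lay above 0 and 20 below 0, and the median difference of doxycycline minus vehicle was -0.00665 on the log2 scale, beside 0.02 over all 17491 genes, of which 55.5% lay above 0. After cyclic loess normalization the split was 15 above and 24 below. With limma and Benjamini-Hochberg adjustment over the whole table, 0 of the 39 passed at 0.05, and 0 of all genes (0%) did. At an unadjusted p under 0.05 there were 0 interferon genes against 3.8% of all genes (2.49% higher and 1.31% lower with doxycycline), and with the unmoderated statistic also 0. The groups overlapped for all 39 genes, whereas they did not overlap for 2.62% of all genes. The smallest unadjusted p, 0.0659, belonged to IFIT2, and the smallest adjusted p was 0.987.

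The precision allows a bound on the array values. The 95% confidence interval of the difference, taken gene by gene without correction for their number, lay within 1 log2 unit of 0 on both sides for 37 of the 39 genes (94.9%), beside 97.8% of all genes. The exceptions were IFI16 and IFITM3. Among the other 37 genes the differences ran from -0.25 to 0.37, and the outermost interval bounds were -0.64 and 0.82. The median standard error was 0.15 for the interferon genes and 0.15 for all genes. Without vehicle replicate 1, 19 genes lay above 0 and 20 below, the median was -0.00459, 0 genes passed, and the interval lay within 1 log2 unit for all 39. The intervals describe whole tissue, so a larger change in the tumour cells alone is not bounded by them. Of the 39 genes, 17 lay below the array median in all 8 arrays, beside 40.6% of all genes. Signal over background was not assessed, so for dim genes the intervals bound the array values and not the amount of RNA.

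**Figure D1:**
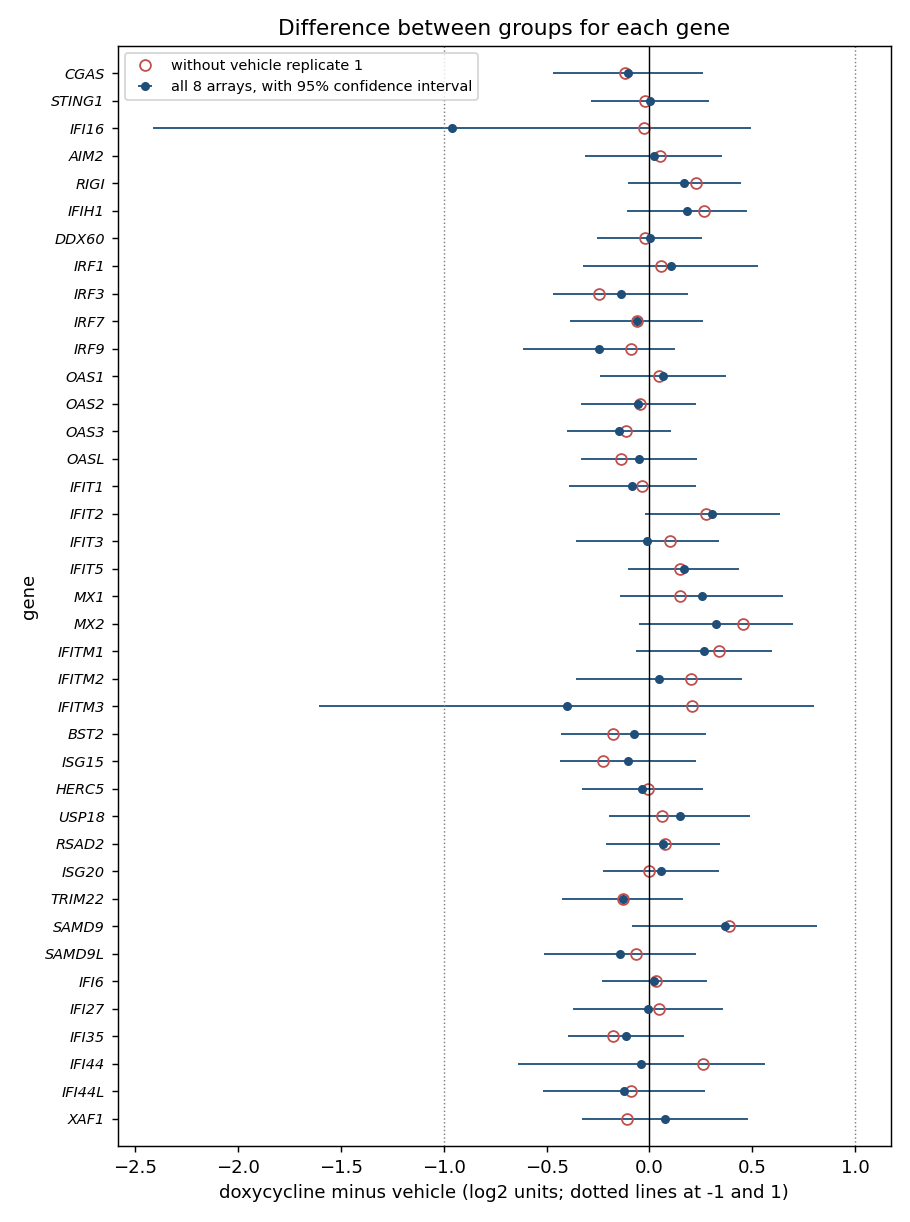
Difference between doxycycline and vehicle in log2 units (x axis) for 39 interferon genes (y axis), filled points with bars for the estimate from 8 arrays and its 95% confidence interval, open circles for the estimate without vehicle replicate 1. Every bar crosses 0, IFI16 and IFITM3 have the widest bars, and the IFI16 estimate goes from -0.96 to -0.03 without that array.

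Among the sensors, IFI16 had by far the widest spread. IFI16, a nuclear and cytosolic DNA-binding protein of the PYHIN family, was at 7.44, 3.83, 3.47 and 3.81 in vehicle replicates 1 to 4 and at 3.65, 3.65, 3.53 and 3.90 in doxycycline replicates 1 to 4. Vehicle replicate 1 alone was high, 3.75 above the mean of the other 7 arrays, and those 7 lay within 3.47 to 3.90 in both groups. The difference was -0.96 ± 0.67 (SE) with all arrays (limma adjusted p = 0.987) and -0.03 ± 0.14 (SE) without vehicle replicate 1. AIM2, the PYHIN protein that builds an inflammasome on DNA and the neighbour of IFI16 in the RefSeq annotation, lay between 3.36 and 3.99 and was at 3.75 in vehicle replicate 1.

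The other sensors had overlapping groups and much narrower ranges than IFI16. CGAS, the enzyme that senses cytosolic DNA, lay between 3.28 and 4.04, highest in vehicle replicate 2, and averaged 3.60 ± 0.30 (SD, n = 4) in the vehicle group against 3.50 ± 0.21 (SD, n = 4) in the doxycycline group. STING1, which encodes its adaptor STING, averaged 6.08 ± 0.19 (SD, n = 4) against 6.09 ± 0.11 (SD, n = 4). RIGI, which encodes the RNA sensor RIG-I, differed by 0.17 ± 0.13 (SE), and IFIH1, which encodes MDA5, by 0.18 ± 0.13 (SE). Both RNA sensors had overlapping groups and an unadjusted limma p above 0.05. DDX60, a helicase described as an aid to RIG-I, lay between 2.79 and 3.07 in all 8 arrays.

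Of the transcription factors, IRF9 came closest to a lower value with doxycycline and IRF1 had a single high array. IRF9, the DNA-binding part of the ISRE complex, was at 7.24, 6.60, 6.46 and 6.81 with vehicle and at 6.59, 6.67, 6.30 and 6.56 with doxycycline. Again vehicle replicate 1 was the highest array, and the difference of -0.25 ± 0.17 (SE) became -0.09 ± 0.14 (SE) without it. IRF1, which is also induced by interferon gamma, reached 6.89 in doxycycline replicate 1, above the 5.97 to 6.36 of the 7 other arrays. IRF3, the factor that the sensors activate directly, differed by -0.14 ± 0.15 (SE), and IRF7, which amplifies type I interferon production, by -0.06 ± 0.15 (SE). Neither of these differences was larger than its standard error, and the groups overlapped for both.

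The OAS enzymes make short oligoadenylates when they meet double-stranded RNA, and OAS1, OAS3 and OAS2 lie next to each other in the RefSeq annotation. OAS3 had the smallest p of the family: it was at 6.47, 6.35, 6.35 and 6.31 with vehicle and at 6.29, 6.08, 6.19 and 6.33 with doxycycline. All 4 doxycycline values lay at or below 6.33 and the vehicle values at or above 6.31, so the groups overlapped narrowly, with a difference of -0.15 ± 0.12 (SE). OAS1 was at 4.67, 4.64, 4.51 and 5.11 with vehicle and at 4.87, 4.77, 4.80 and 4.76 with doxycycline. The vehicle arrays enclosed all doxycycline arrays of OAS1, and its difference of 0.07 ± 0.14 (SE) turned to -0.00775 without vehicle replicate 3 and to -0.00690 with array weights. OAS2 and OASL, the latter a relative without the enzyme activity, both differed by -0.05 ± 0.13 (SE).

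IFIT proteins bind viral RNA ends and block their translation, and IFIT2, IFIT3, IFIT1 and IFIT5 form a cluster in the annotation. IFIT2 was at 5.49, 5.62, 5.29 and 5.93 with vehicle and at 5.75, 5.80, 6.05 and 5.96 with doxycycline. The other 3 vehicle arrays lay below every doxycycline array, and vehicle replicate 4 lay among the doxycycline arrays. The difference was 0.30 ± 0.15 (SE), with a 95% interval of -0.02 to 0.63 (limma adjusted p = 0.987, above the threshold). IFIT1, from the same cluster and the classic marker of an interferon response, differed by -0.08 ± 0.14 (SE). IFIT3, the partner that stabilizes IFIT1, differed by -0.01 ± 0.16 (SE), and IFIT5 by 0.17 ± 0.12 (SE). The cluster therefore held 2 genes above 0 and 2 below.

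The MX genes encode GTPases that trap viral particles, and both lay above 0. MX2 was at 4.84, 4.28, 4.44 and 4.22 with vehicle and at 4.56, 4.73, 4.62 and 5.16 with doxycycline. Its highest array was doxycycline replicate 4, and vehicle replicate 1 was higher than the other 3 doxycycline arrays. The difference was 0.32 ± 0.17 (SE), 0.45 ± 0.16 (SE) without vehicle replicate 1 and 0.19 ± 0.17 (SE) without doxycycline replicate 4. MX1, whose mouse counterpart is defective in most inbred strains, differed by 0.25 ± 0.18 (SE) with overlapping groups, and by 0.15 ± 0.17 (SE) without vehicle replicate 1.

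IFITM proteins sit in membranes and hinder virus entry, and among them IFITM3 was far more uneven than its neighbours IFITM1 and IFITM2. IFITM3 was at 8.34, 5.94, 5.32 and 6.45 with vehicle and at 5.57, 5.73, 5.81 and 7.34 with doxycycline. One array of each group was high, vehicle replicate 1 and doxycycline replicate 4. The difference of -0.40 ± 0.55 (SE) turned to 0.21 ± 0.35 (SE) without vehicle replicate 1 and was -0.81 ± 0.54 (SE) without doxycycline replicate 4, so its direction rested on which of these arrays entered. IFITM1 was at 6.14, 5.88, 5.97 and 5.66 with vehicle and at 6.09, 5.94, 6.15 and 6.51 with doxycycline. Doxycycline replicate 4 was again the highest, and the difference of 0.27 ± 0.15 (SE) was 0.34 ± 0.15 (SE) without vehicle replicate 1 and 0.15 ± 0.15 (SE) without doxycycline replicate 4. IFITM2 was highest in vehicle replicate 1 at 7.63 and differed by 0.05 ± 0.19 (SE), and by 0.20 ± 0.16 (SE) without that array. The IFITM genes are close relatives, and how far their probe sets read each other was not tested. BST2, or tetherin, which holds budding virus at the cell surface, differed by -0.08 ± 0.16 (SE).

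Without vehicle replicate 1, MX2 and IFITM1 had an unadjusted p under 0.05 (limma, 0.0113 and 0.0433), and their adjusted p stayed above 0.05. These 2 of 39 genes (5.13%) compare with 4.91% of all genes in the same fit.

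ISG15 is a ubiquitin-like protein that HERC5 attaches to other proteins and USP18 removes, and none of the 3 genes passed. ISG15 was at 5.94, 6.29, 6.66 and 6.32 with vehicle and at 6.23, 6.14, 6.33 and 6.09 with doxycycline. The vehicle arrays again enclosed the doxycycline arrays, with vehicle replicate 1 the lowest of the 8 arrays, opposite to its place for IFI16. The ISG15 difference was -0.11 ± 0.15 (SE), and it turned to 0.01 without vehicle replicate 3. USP18, which also shuts off type I receptor signalling, was at 3.90, 4.54, 3.88 and 4.29 with vehicle and at 4.22, 4.34, 4.22 and 4.41 with doxycycline. Its doxycycline values lay inside the vehicle range, and the difference was 0.15 ± 0.16 (SE). HERC5 differed by -0.03 ± 0.14 (SE).

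Among the remaining effectors SAMD9 had the largest difference above 0 of all 39 genes. SAMD9, a restriction factor of poxviruses, was at 3.11, 3.20, 2.65 and 3.26 with vehicle and at 3.11, 3.14, 3.41 and 4.02 with doxycycline. Doxycycline replicate 4 was the highest array and vehicle replicate 3 the lowest, while the other 6 arrays lay between 3.11 and 3.41. The difference was 0.37 ± 0.21 (SE), and 0.16 ± 0.17 (SE) without doxycycline replicate 4. SAMD9L, its neighbour and paralogue, differed the other way by -0.14 ± 0.17 (SE). RSAD2, which encodes viperin, an enzyme that makes a chain-terminating nucleotide, lay between 4.97 and 5.40, and ISG20, an exonuclease, between 6.80 and 7.20. TRIM22, a ubiquitin ligase, differed by -0.13 ± 0.13 (SE).

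The IFI genes named only for their induction gave one further uneven gene, IFI44. IFI44 was at 4.90, 3.91, 3.51 and 3.69 with vehicle and at 3.66, 3.73, 3.99 and 4.47 with doxycycline. As with IFITM3, vehicle replicate 1 and doxycycline replicate 4 were the highest arrays, and the difference of -0.04 ± 0.28 (SE) turned to 0.26 ± 0.19 (SE) without vehicle replicate 1. It also lay above 0 when doxycycline replicate 1 or 2 was left out, and when arrays were weighted. IFI44L, its neighbour, was highest in doxycycline replicate 4 at 3.87 and lay between 3.06 and 3.56 elsewhere. IFI35 was at 7.42, 7.56, 7.78 and 7.66 with vehicle and at 7.64, 7.31, 7.55 and 7.47 with doxycycline, a difference of -0.11 ± 0.13 (SE) with overlapping groups. IFI6, a small mitochondrial and endoplasmic reticulum protein, lay between 6.31 and 6.59 in all arrays. IFI27 lay between 5.64 and 6.31. XAF1, an apoptosis-promoting protein, was lowest in vehicle replicate 1 at 6.06 and lay between 6.38 and 6.93 in the other 7 arrays.

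**Figure D2:**
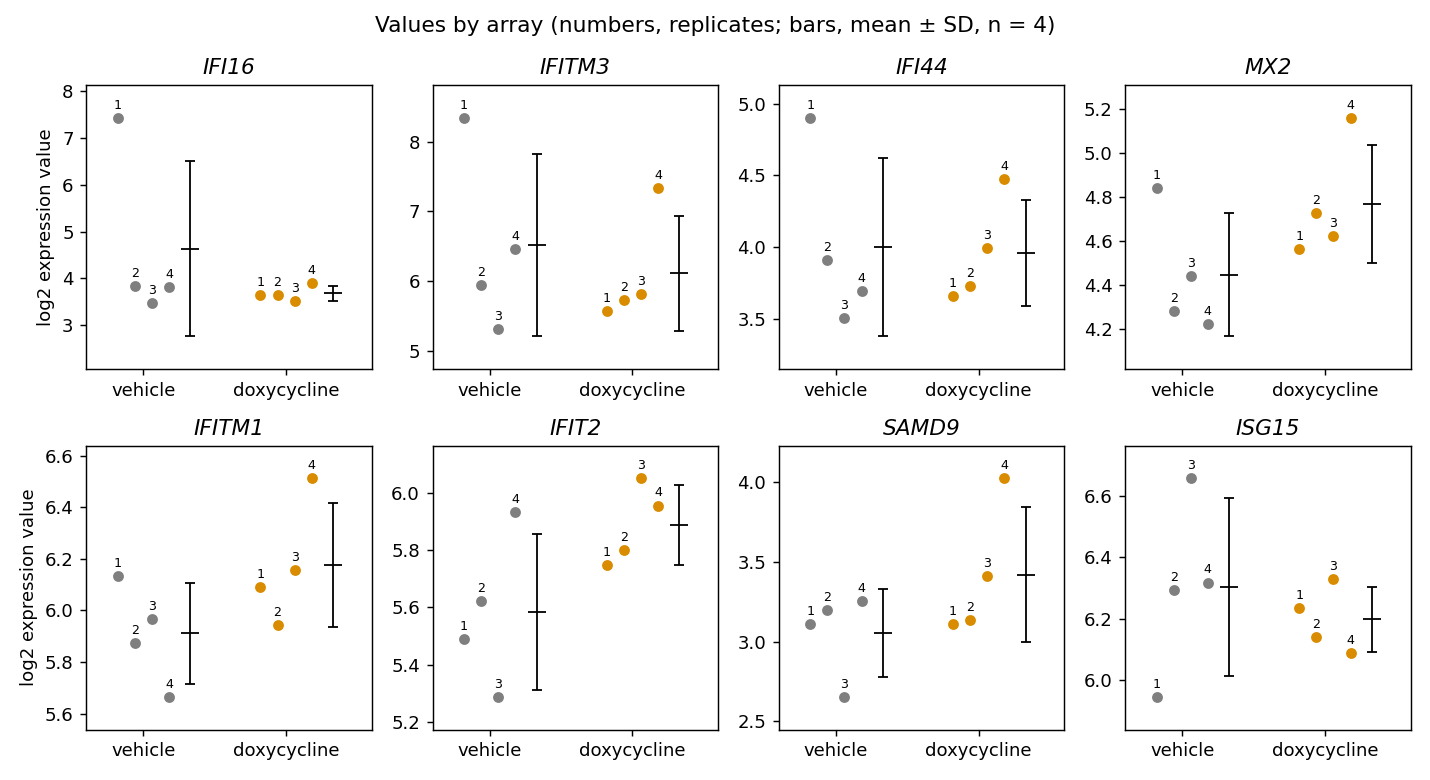
Log2 expression values (y axis, a separate scale for each gene) of 8 interferon genes in 4 vehicle and 4 doxycycline arrays, with replicate numbers beside the points and bars for the mean ± SD (n = 4). Vehicle replicate 1 is at 7.44 for IFI16 and 8.34 for IFITM3, doxycycline replicate 4 is the highest array for MX2, IFITM1 and SAMD9, and the groups overlap in all panels.

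The spread among arrays of a group was thus larger than the difference between the groups for the most variable genes. The range over the 8 arrays exceeded 1 log2 unit for 4 of the 39 genes (10.3%), IFI16, IFITM3, SAMD9 and IFI44, beside 12.9% of all genes. The median range was 0.65 for the interferon genes and 0.63 for all genes. In vehicle replicate 1, 3 of the 39 genes (7.69%) exceeded the mean of the other 7 arrays by more than 1 log2 unit, beside 3.43% of all genes. As far below it lay 0 of the 39, beside 0.131% of all genes. The 3 genes above it were IFI16, IFITM3 and IFI44. This array was the highest of the 8 for 9 of the 39 genes (23.1%) and for 15.2% of all genes.

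**Figure D3:**
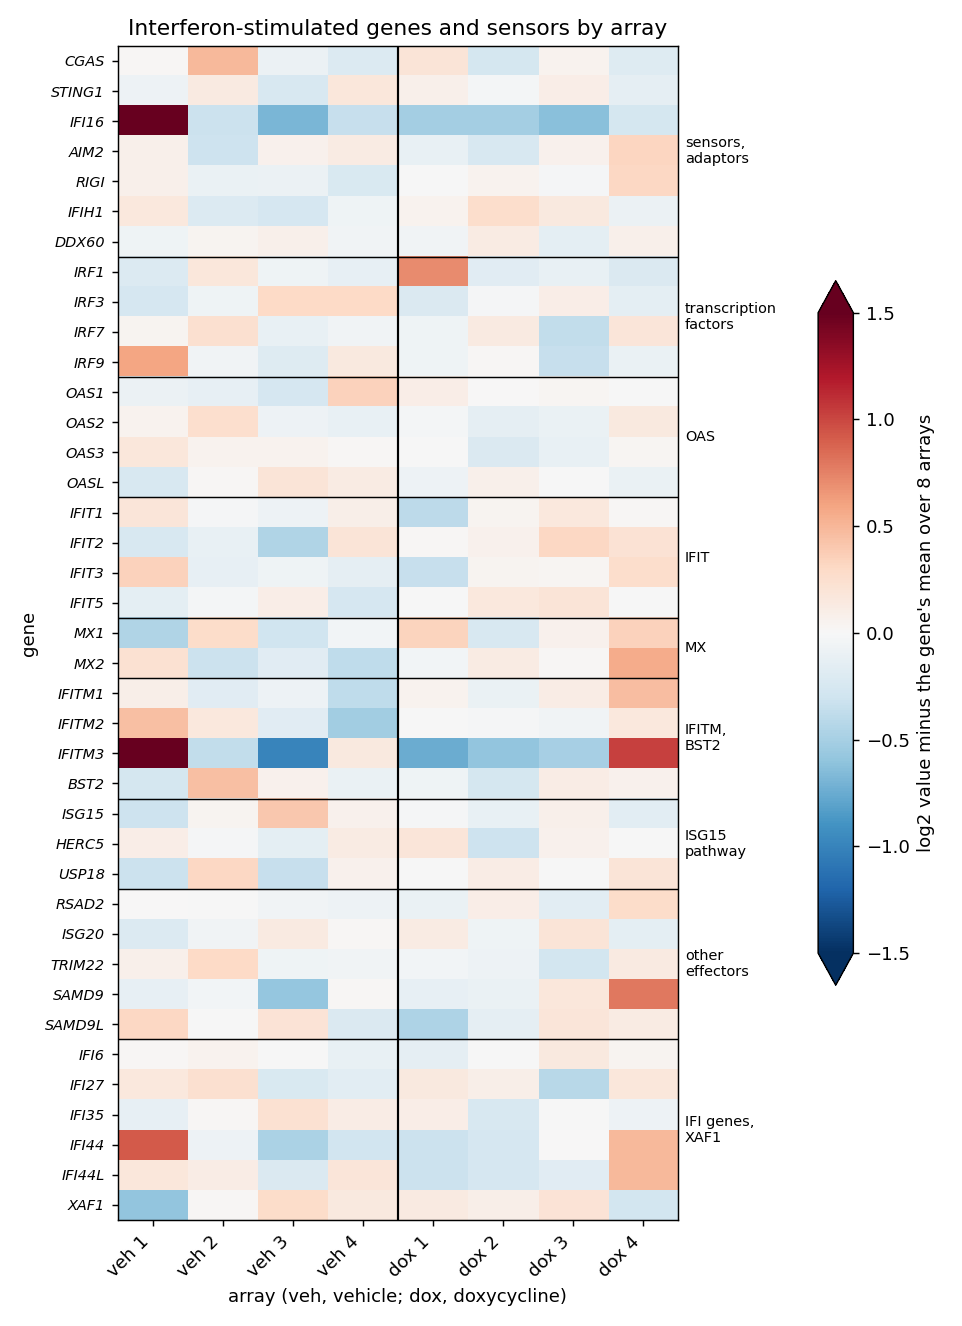
Heat map of 39 interferon genes (rows, grouped by role) in 8 arrays (columns), coloured by the log2 value minus the mean of the gene over 8 arrays; the colour bar gives the scale. The strongest colours above the mean are IFI16 and IFITM3 in vehicle replicate 1 and IFITM3 in doxycycline replicate 4, and no role has one colour throughout a group.

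The list median in each array gave the same account. Measured against the mean of each gene over the 8 arrays, the median over the 39 genes was 0.04, -0.00249, -0.08 and -0.05 in vehicle replicates 1 to 4 and -0.02, -0.03, 0.03 and 0.07 in doxycycline replicates 1 to 4. The ranges of the groups overlapped, and doxycycline replicate 4 and vehicle replicate 1 were the highest arrays. Over all genes the 7 other arrays had medians of -0.02 to 0.01, and vehicle replicate 1 had -0.10.

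**Figure D4:**
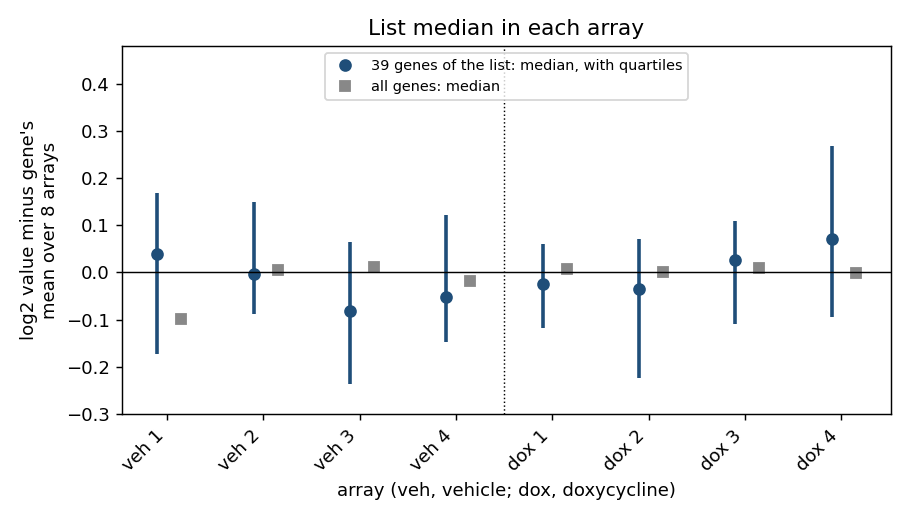
Median over 39 interferon genes (circles, with lines from the lower to the upper quartile) and over all genes (squares) of the log2 value minus the mean of the gene over 8 arrays (y axis), by array (x axis). The list median runs from -0.08 in vehicle replicate 3 to 0.07 in doxycycline replicate 4, and the groups overlap.

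Markers of the cells that a node with tumour can hold were measured beside these genes, as the mean log2 value of each marker list. B lymphocyte markers (5 of 6 measured) were at 5.93 to 6.22 with vehicle and 6.07 to 6.25 with doxycycline, T and NK lymphocyte markers (8 of 8) at 4.14 to 4.48 and 4.26 to 4.36. Markers listed for plasmacytoid dendritic cells, the main producers of type I interferon, had means (4 of 5) of 5.55 to 5.95 and 5.67 to 5.81. Of these 4, TCF4 (8.71 to 9.80) and SPIB lay above the array median in all 8 arrays, and CLEC4C and IL3RA below it. Whether these human probe sets read mouse cells of this type was not tested, so the mean is no measure of such cells. Macrophage and dendritic cell markers (8 of 8) were at 5.27 to 5.34 and 5.37 to 5.43, without overlap, a difference of 0.08. Taken singly, 6 of these genes lay above 0 and 2 below, and only 1, CD163, had groups without overlap, beside 2.62% of all genes. Granulocyte markers (5 of 5) were at 4.68 to 5.14 and 4.82 to 5.05, endothelial markers (5 of 5) at 5.11 to 5.40 and 5.28 to 5.52, and fibroblast markers (5 of 6) at 6.28 to 6.38 and 6.23 to 6.46. Adipocyte markers (5 of 5) were at 5.01 to 5.42 and 5.43 to 5.81, also without overlap, a difference of 0.41. Taken singly, 3 of the 5 genes had groups without overlap, while ADIPOQ overlapped and PLIN1 overlapped and went the other way, by -0.13. Skeletal muscle markers (5 of 5) were at 5.87 to 6.75 and 5.99 to 7.07, a difference of 0.50. Melanoma markers (6 of 7) were at 5.01 to 5.34 with vehicle and 5.35 to 5.43 with doxycycline, without overlap. Their difference was 0.16, and 0.08 without vehicle replicate 1, and taken singly 0 of the 6 genes had groups without overlap. Vehicle replicate 1 had the lowest mean, but the genes of the list did not all follow it. MLANA, a melanocyte antigen, was at 4.60 there against 5.63 to 6.21 elsewhere, and PMEL and S100B were also lowest there. TYR, SOX10 and MITF were not, at 3.82, 5.58 and 6.02 there. Elsewhere these lay at 3.52 to 3.93, 5.52 to 5.92 and 5.63 to 6.15. The share of non-overlapping means was not computed for other gene lists. In doxycycline replicate 4 the adipocyte mean was 5.81, the highest of the 8, and the skeletal muscle mean 5.99 against 6.79 to 7.07 in the other 3 doxycycline arrays. The part of these cell types in the values of the interferon genes was not tested, and presence or absence of a marker could not be judged without background signals.

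The wider pathway was read from a list of 97 further genes, of which 90 were measured, and 0 passed at an adjusted p under 0.05. In this list 47 genes lay above 0 and 43 below, with a median of 0.00755. At an unadjusted limma p under 0.05 there were 7 of 90 genes (7.78%), 4 higher and 3 lower, beside 3.8% of all genes, and the groups did not overlap for 4 of 90 (4.44%), beside 2.62%.

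Among the ligands, 13 of 19 type I and III interferon genes lay above 0 and their median was 0.03, beside 55.5% of all genes above 0. Without vehicle replicate 1, 10 lay above 0 and 9 below with a median of 0.0127, beside 50.8% of all genes above 0. IFNB1, the interferon first made by most cells, was at 3.44, 3.83, 3.83 and 3.50 with vehicle and at 3.96, 3.90, 4.05 and 3.62 with doxycycline, a difference of 0.23 ± 0.14 (SE) with overlapping groups. IFNW1, interferon omega, was at 4.48, 4.65, 4.75 and 4.39 with vehicle and at 4.96, 5.28, 4.64 and 5.20 with doxycycline. Doxycycline replicate 3 lay among the vehicle arrays, and the difference was 0.45 ± 0.16 (SE). The interferon alpha genes are near-identical copies, and which copy a probe set reads is uncertain. IFNA21, one of those copies, was at 4.64, 4.24, 4.35 and 4.41 with vehicle and at 4.63, 4.76, 4.59 and 4.83 with doxycycline. Vehicle replicate 1 lay among the doxycycline arrays of IFNA21, and the difference was 0.29 ± 0.13 (SE). IFNG, the type II interferon, differed by -0.00920 ± 0.16 (SE). IFNA16 was at 2.99 to 3.16 with vehicle and 3.18 to 3.40 with doxycycline, without overlap, and was picked for that after its values were seen.

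Of the receptor chains, IFNGR2 lay lower in all 4 doxycycline arrays than in any vehicle array and the type I receptor differed little. IFNGR2, the signalling chain of the interferon gamma receptor, was at 5.83, 4.38, 4.34 and 4.31 with vehicle and at 4.02, 4.12, 4.10 and 4.05 with doxycycline. The groups did not overlap, but vehicle replicate 1 stood 1.64 above the mean of the other 7 arrays. The difference was -0.64 ± 0.28 (SE) with all arrays and -0.27 ± 0.12 (SE) without that array (limma adjusted p = 0.987 and 0.962, both above the threshold). IFNAR1, a chain of the type I receptor, was at 3.12, 3.39, 3.28 and 3.20 with vehicle and at 3.36, 3.14, 3.20 and 3.35 with doxycycline. Its difference of 0.01 ± 0.12 (SE) turned below 0 under quantile (-0.00902) and cyclic loess (-0.0108) normalization, and without any one of vehicle replicates 1 and 4 and doxycycline replicates 1 and 4. IFNAR2, the other chain, was at 3.76, 4.03, 3.56 and 2.80 with vehicle and at 3.60, 3.51, 3.44 and 3.27 with doxycycline, so the vehicle arrays enclosed the doxycycline arrays.

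Downstream and regulatory genes with the smallest p were TRIM21, IRF5 and CMTR1. TRIM21, an antibody receptor of the cytosol and ubiquitin ligase, was at 2.94, 2.92, 3.14 and 2.84 with vehicle and at 3.57, 3.61, 3.11 and 3.25 with doxycycline. Only doxycycline replicate 3 reached into the vehicle range, and the difference was 0.43 ± 0.14 (SE), the smallest unadjusted p of the wider list (0.0118, limma adjusted p = 0.987). CMTR1, which methylates the cap of messenger RNA, was at 4.82, 4.63, 5.0 and 4.85 with vehicle and at 4.91, 4.02, 3.86 and 4.36 with doxycycline, where doxycycline replicate 1 lay among the vehicle arrays. IRF5, a factor of inflammatory myeloid cells, was at 7.21, 7.54, 7.47 and 7.44 with vehicle and at 7.27, 7.22, 6.75 and 7.12 with doxycycline. These groups overlapped too, with differences of -0.54 ± 0.20 (SE) for CMTR1 and -0.33 ± 0.14 (SE) for IRF5. CXCL11, an interferon-induced chemokine picked after its values were seen as the remaining gene with an unadjusted p under 0.05, differed by 0.27 ± 0.12 (SE). TBK1, the kinase that activates IRF3, and IRF8, a myeloid factor, were picked for groups that did not overlap and differed by 0.27 ± 0.13 (SE) and 0.25 ± 0.13 (SE). IRF8 is also expressed by B cells and dendritic cells of the host, whose part in its value was not tested.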

How the data were processed

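Expression was measured on 8 one-colour Affymetrix human arrays, 1 per sample, from lymph nodes per the sample labels or melanomas per the design text. The deposited log2 values, 1 per probe set and array, were made by the authors with RMA, per the submitters' processing notes. No source used here states the RMA version or the genome build. Of 18565 probe sets, 17509 carried a single gene symbol and 1056 were unnamed and not tested. Each gene kept its probe set with the highest mean, and all 39 measured interferon genes had a single one. Signal over background was not assessed, since scanner signals were not used, and the number of arrays limits the precision.

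Differences are doxycycline minus vehicle, fitted with limma 3.58.1 (lmFit and eBayes, no covariates) in R 4.3.3. Two-sided p-values were adjusted by Benjamini-Hochberg across the 17491 genes, and an adjusted p under 0.05 passed. Alternatives covered normalization, dim genes, probe sets, the variance model, array weights, the replicate block and each array left out. The code of the fit was run on simulated data with known differences, independent noise and no outlying array. That run checks the code and is no support for the results given here. Promoter windows were searched in Python 3.11.15 with pandas 2.3.3 and plots drawn with matplotlib 3.10.9. Interferon genes and lists were chosen with earlier results of these data known. Values in every array are given for the genes of each of 9 roles with the smallest p and the widest range (13 genes), for any with an unadjusted p under 0.05 or groups without overlap (0 genes), and, from the wider list, for the 3 with the smallest p in each direction with IFNB1, IFNAR1 and IFNAR2. Others were named for their role, or after their values were seen, as stated there.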

Additional observations from a re-analysis of the deposited data

Results flagged for a closer look

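Values far from the other 3 of their group were looked for in the 39 interferon genes and 9 genes of the wider list, in 96 groups of 4 arrays. The gap to the nearest array as a share of the group's range exceeded Dixon's 95% critical value in 8 groups, where chance gives about 1 in 20. The share over all genes was not computed, and vehicle replicate 1 stood apart over all genes. Whether the count is usual for genes on these arrays was therefore not tested, and it is not read as a trait of interferon genes. Of the 8 groups, 3 held high values of vehicle replicate 1: IFI16 at 7.44 against 3.83 for the next array, IFIT3 at 5.05 against 4.65, and IFNGR2 at 5.83 against 4.38. Among the doxycycline arrays, IFITM3 was at 7.34 in replicate 4 against 5.81 for the next, IRF1 at 6.89 in replicate 1 against 6.07, and IFI27 was low in replicate 3 at 5.64 against 6.15. AIM2 was low in vehicle replicate 2 at 3.36 against 3.74, and IFI44L low in vehicle replicate 3 at 3.16 against 3.50.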

How the results depend on the processing

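Under all 18 alternatives limma or its unmoderated statistic called 0 interferon genes, 0 genes of the wider list and 0 of all genes. The smallest adjusted p over all genes was 0.700 with the unmoderated statistic and, with limma, 0.808 without vehicle replicate 3. The median difference of the interferon genes ran from -0.04 to 0.03 over the 18 alternatives, within the spread of the array medians (pooled SD 0.05). At an unadjusted p under 0.05 the replicate block gave 734 of all genes in place of 665 and 0 interferon genes. No label says that a number marks a shared animal, litter or day, so the numbers were not taken as pairs. The deviations of same-numbered arrays correlated across genes at -0.05, 0.15, 0.09 and 0.00293 for numbers 1 to 4. Vehicle replicates 2 and 3 correlated best with the doxycycline array of their own number, and vehicle replicates 1 and 4 did not.

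Of 22 named genes, 16 kept their sign in every alternative in which they were fitted. With array weights OAS1 was at -0.00690, IFI44 at 0.0873, IFNAR1 at -0.000171 and IFNAR2 at 0.0722. IFNAR1 was at -0.00902 under quantile and -0.0108 under cyclic loess normalization. With each array left out in turn, the differences ran from -0.00775 to 0.19 for OAS1, -0.81 to 0.21 for IFITM3, -0.23 to 0.0128 for ISG15, -0.21 to 0.26 for IFI44, -0.0293 to 0.0606 for IFNAR1 and -0.33 to 0.0818 for IFNAR2. The cause was not tested. Without the dimmest 25% or 50% of genes, 27 and 18 interferon genes remained in the fit, and 0 passed.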

Other observations

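One array of the doxycycline group carried more of the interferon genes than the others. Set against the mean of the other 3 doxycycline arrays, doxycycline replicate 4 was higher by more than 0.25 log2 units for 15 of the 39 interferon genes (38.5%) and lower by as much for 2, beside 14.4% of all genes in each direction. In doxycycline replicates 1, 2 and 3, 4, 0 and 2 interferon genes were higher by as much than the rest of the group, beside 12.9%, 12.2% and 13.8% of all genes, and 8, 11 and 5 were lower, beside 12.7%, 12.9% and 12.7%. In vehicle replicates 1 to 4, 10, 9, 3 and 4 were higher, beside 17.1%, 19.7%, 23.7% and 13.7%, and 7, 3, 11 and 7 were lower, beside 30.7%, 16.5%, 16.9% and 15.8%. In the wider list 18 of 90 genes were higher in doxycycline replicate 4 and 14 lower. The genes with an excess over 0.5 log2 units there were IFITM3 (1.64), SAMD9 (0.80), IFI44L (0.74), IFI44 (0.68) and MX2 (0.52), a restriction factor of virus entry, a poxvirus restriction factor, a pair of neighbouring induced genes and a GTPase.

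Vehicle replicate 1 and doxycycline replicate 4 were the 2 highest of the 8 arrays for 6 interferon genes (15.4%), IFI16, RIGI, IFIT3, MX2, IFITM3 and IFI44, beside 4.40% of all genes. Vehicle replicate 2 and doxycycline replicate 4 were the 2 highest for 5 of the 39, beside 3.28% of all genes. Without doxycycline replicate 4, 15 interferon genes lay above 0 and 24 below, beside 55.9% of all genes above 0. These thresholds and pairs of arrays were chosen after the values were seen, so the counts are a description with no test.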
